A study of Homo sapiens with 12 samples.

Results

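The keratin genes were followed through methotrexate exposure in HT29, a long-established line from a human adenocarcinoma of the colon. The members were the genes named KRT1 to KRT86 that had a probe set naming a single gene on the Affymetrix human gene array, with keratin-associated proteins and pseudogenes left out. They were 47 of the 18377 genes tested, 27 of type I and 20 of type II. Of the 54 protein-coding keratins with such names in the RefSeq gene table, 7 (KRT6A, KRT6B, KRT6C, KRT17, KRT81, KRT82 and KRT86) had no probe set of their own in the table used and were not analysed here. The 12 arrays formed 4 groups of 3: untreated control cells, taken as 0 h, and cells after 8, 24 and 48 h with 70 nM methotrexate. All groups were the same line grown in F12 medium with foetal bovine serum, and the titles call the 3 arrays of a group biological replicates. The later times had no untreated partner among the arrays analysed, so treatment and time in culture cannot be told apart in any comparison with control.

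Keratins are the intermediate filament proteins of epithelial cells. A filament is built from pairs of an acidic type I and a basic type II keratin, and each kind of epithelium makes its own pairs. KRT8 and KRT18 form the main pair of the intestinal lining, together with KRT19 and, in the more differentiated cells, KRT20. Other keratins belong to stratified epithelia such as skin, mouth and cornea, or to hair. Methotrexate is an antifolate that inhibits dihydrofolate reductase and so limits the supply of reduced folates for thymidylate and purine synthesis.

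Each deposited value is a log2 ratio to the median of the 3 control arrays for that probe set. The level of a keratin in control cells is therefore unknown, and the levels of different keratins cannot be compared. It also cannot be seen which keratins were above background, nor could the identity of the line be checked by the level of its markers. Of 9 measured colon epithelial markers, KRT20 rose at 24 and 48 h and the lectin gene LGALS4 fell at all 3 times (log2 fold change -0.64, SE 0.06, at 8 h). The changes of all 9 lay between -0.64 and 0.53. Of 8 stromal and 4 blood cell markers, 0 were called in any comparison with control by limma, with 2 stromal markers at 24 h and 1 blood marker at 48 h at an unadjusted p under 0.05. The shares of all genes called against control were 24.2% at 8 h, 16.7% at 24 h and 25.3% at 48 h. Replicate 3 of the 48 h group stood apart. Its root mean square distance to replicate 1, taken over the 47 keratins, was 0.21, while every other pair within a group lay at 0.087 to 0.17.

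Most keratins were not called in any comparison, and those that were lay almost all above control. A gene was called at an adjusted p under 0.05 in limma's moderated test, adjusted by Benjamini and Hochberg's method over all 18377 genes. Against control, 4 of the 47 keratins were called at 8 h (3 higher, 1 lower), 10 at 24 h and 9 at 48 h (all higher). Among all genes, the called shares were 24.2%, 16.7% and 25.3%. The keratin shares were 8.51%, 21.3% and 19.1%. Calls upward made up 12.1% of all genes at 8 h, 8.69% at 24 h and 13% at 48 h, against 6.38%, 21.3% and 19.1% of keratins. Calls downward made up 12%, 8.02% and 12.3% of all genes, against 2.13%, 0% and 0% of keratins. At an unadjusted p under 0.05, limma had 0 keratins lower than control at 24 h and 1 at 48 h. In bulk RNA, fewer cells expressing a keratin and less of its RNA per cell cannot be told apart.

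The median keratin differed from control by 0.06 at 8 h, 0.07 at 24 h and 0.04 at 48 h on the log2 scale, against 0.02, 0.02 and 0.01 for all genes. The 3 treated arrays did not overlap the 3 control arrays for 11 keratins at 8 h (23.4%, against 37.9% of all genes), 15 at 24 h (31.9%, against 33%) and 13 at 48 h (27.7%, against 35.7%). By limma's moderated F test over the 4 groups, 10 keratins differed (21.3%, against 38.8% of all genes). These 3 comparisons all use 1 set of control arrays. The counts rest on how arrays are weighted. With array weights, 13 keratins were called at 8 h (27.7%, against 35.8% of all genes), 16 at 24 h (34%, against 33.1%) and 14 at 48 h (29.8%, against 40.6%). These shares count both directions. Of the 13 at 8 h, 12 were higher and 1 lower, and all 16 at 24 h were higher. The shares of all genes by direction were not worked out with array weights at 8 and 24 h. The F test with array weights called 23 (48.9%, against 60.9%). Of the 14 at 48 h, 12 were higher (25.5%, against 20% of all genes) and 2 lower (4.26%, against 20.5%), namely KRT5 and KRT9 (-0.11 and -0.15). Without 48 h replicate 3, 9 were higher (19.1%, against 13%) and KRT4 was lower (2.13%, against 11.1%) at 48 h. Requiring at least a 1.5-fold change left 2 keratins at 8 h (4.26%, against 3.25% of all genes), 6 at 24 h (12.8%, against 2.41%) and 5 at 48 h (10.6%, against 3.74%).

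**Figure D1:**
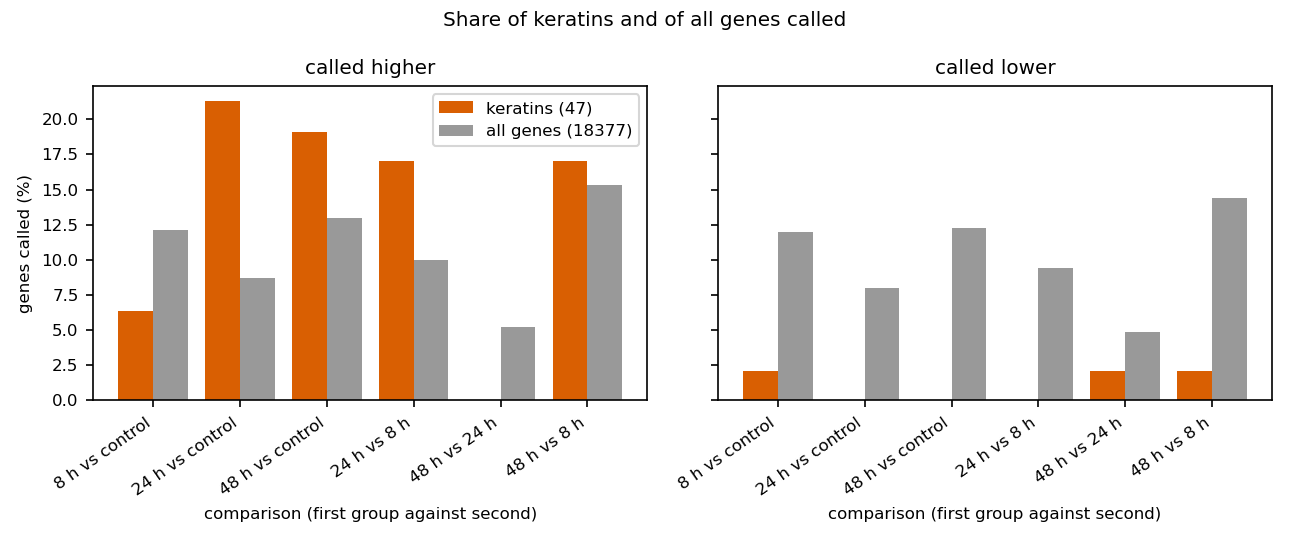
Share of genes called (percent) in each of the 6 comparisons, for the 47 keratins (orange) and all 18377 genes (grey), with calls higher in the first group on the left and calls lower on the right. At 24 h against control 21.3% of keratins were called higher against 8.69% of all genes, and 0% lower against 8.02%.

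**Figure D2:**
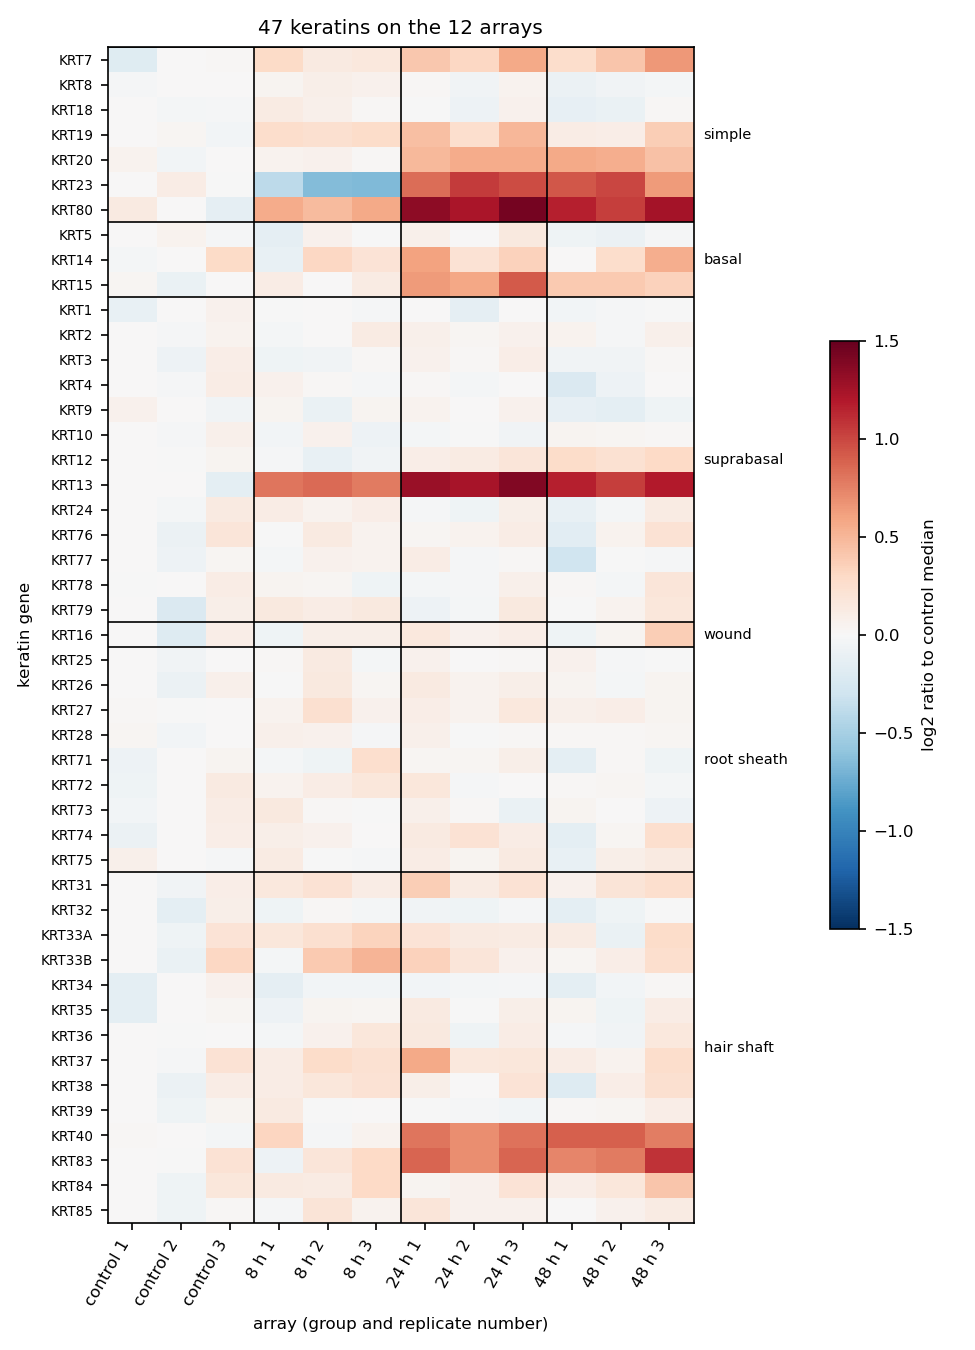
Values of the 47 keratins (rows, grouped by the epithelium they are known from) on the 12 arrays (columns, in 4 groups of 3), as colours for the log2 ratio to the control median. The colour stands out in a few rows, among them KRT13, KRT80, KRT23, KRT40 and KRT83, and KRT23 is the row that is blue at 8 h and red at 24 and 48 h.

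The principal pair of the intestinal epithelium, KRT8 and KRT18, was not called against control at any time. KRT8, the type II partner, read -0.02, 0.00 and 0.01 on the control arrays. It read 0.04, 0.09 and 0.07 at 8 h, 0.02, -0.05 and 0.06 at 24 h and -0.09, -0.06 and -0.03 at 48 h. The 8 h arrays all lay a little above control and the 48 h arrays all a little below it. The largest of its 3 differences from control was 0.07 (SE 0.04, 95% confidence interval -0.02 to 0.17, adjusted p = 0.302) at 8 h. At 24 h the difference was 0.01 (interval -0.08 to 0.11) and at 48 h -0.05 (interval -0.15 to 0.04).

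KRT18, the type I partner of KRT8, was the mean of 2 probe sets. It read 0.01, -0.03 and -0.02 in control, 0.13, 0.07 and 0.01 at 8 h, -0.01, -0.07 and 0.07 at 24 h and -0.13, -0.10 and 0.02 at 48 h. The groups at 24 and 48 h overlapped control. Its differences were 0.09 (interval -0.03 to 0.20) at 8 h, 0.01 (interval -0.11 to 0.13) at 24 h and -0.06 (interval -0.18 to 0.06) at 48 h. KRT8 and KRT18 have many processed pseudogenes, so part of the signal of either gene could come from near-identical copies. Between the treated groups, KRT8 was lower at 48 h than at 8 h by limma (-0.13, SE 0.04, adjusted p = 0.0457). That call was lost in 12 of 18 other fits, with an adjusted p of up to 0.141, among them without any 1 control array, any 1 of the 8 h arrays, 24 h replicate 1 or 3, or 48 h replicate 1 or 2. It was also lost with the replicate block (0.0624) and in a fit of only those groups (0.118). KRT18 differed by -0.14 between the same times (SE 0.05, adjusted p = 0.0711), and was called lower without 48 h replicate 3 (-0.19, adjusted p = 0.0182) and with array weights (-0.16, adjusted p = 0.00201). Its 2 probe sets differed by -0.11 (adjusted p = 0.186) and -0.18 (adjusted p = 0.0441) in limma's fit of single probe sets.

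Simple epithelia are the single-layered linings of gut and ducts. The other 5 keratins placed in that class, KRT80 among them, were each called against control at 1 time or more. KRT20, a type I keratin of differentiated enterocytes and goblet cells, read 0.06, -0.04 and 0.00 in control and 0.05, 0.06 and 0.02 at 8 h. It read 0.48, 0.56 and 0.56 at 24 h and 0.57, 0.55 and 0.44 at 48 h. The 8 h arrays lay among the controls, and all 6 later arrays lay clear above both groups. KRT20 rose 1.44-fold at 24 h (log2 fold change 0.53, SE 0.05, adjusted p = 9.47e-06) and 1.43-fold at 48 h (0.51, SE 0.05, adjusted p = 6.99e-06), and differed by 0.04 at 8 h (adjusted p = 0.671).

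KRT23, a type I keratin found in several glandular epithelia, was the 1 keratin that fell against control. It read 0.00, 0.11 and -0.0047 in control and -0.40, -0.65 and -0.67 at 8 h. It then read 0.84, 1.04 and 0.98 at 24 h and 0.94, 1.01 and 0.64 at 48 h. No array of the 8 h group reached control, and all 6 arrays after 24 and 48 h were above it. KRT23 fell 1.53-fold at 8 h (-0.61, SE 0.10, adjusted p = 0.000462), then rose 1.89-fold over control at 24 h (0.92, SE 0.10) and 1.77-fold at 48 h (0.83, SE 0.10). From 8 to 24 h the rise was 2.88-fold (1.53, SE 0.10, adjusted p = 9.14e-07).

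KRT80, a type II keratin found in many epithelia, rose at all 3 times. It read 0.14, 0.00 and -0.13 in control, 0.55, 0.47 and 0.56 at 8 h, 1.34, 1.23 and 1.43 at 24 h and 1.17, 1.04 and 1.25 at 48 h. No treated array overlapped control, and the 8 h arrays lay between control and the later groups. The rise was 1.44-fold at 8 h (0.53, SE 0.08, adjusted p = 0.000246), 2.51-fold at 24 h (1.33, SE 0.08, adjusted p = 1.59e-07) and 2.22-fold at 48 h (1.15, SE 0.08, adjusted p = 3.09e-07).

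KRT7, a type II keratin of ducts and glands that normal colon makes little of, rose at 24 and 48 h. It read -0.18, 0.00 and 0.02 in control, 0.29, 0.13 and 0.16 at 8 h, 0.40, 0.31 and 0.57 at 24 h and 0.26, 0.41 and 0.65 at 48 h. All 9 treated arrays lay above the 3 controls, with 48 h replicate 3 the highest. The rise was 1.40-fold at 24 h (0.48, SE 0.10, adjusted p = 0.00365) and 1.41-fold at 48 h (0.49, SE 0.10, adjusted p = 0.00191). At 8 h it differed by 0.25 (SE 0.10, adjusted p = 0.0842), which passed the threshold with the replicate block (0.0470), with array weights (0.0328), without 48 h replicate 3 (0.0274) and in a fit of only these groups (0.0232).

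KRT19, a type I keratin of the intestinal lining, read 0.00, 0.03 and -0.04 in control and 0.26, 0.24 and 0.27 at 8 h. It read 0.45, 0.25 and 0.50 at 24 h and 0.11, 0.10 and 0.37 at 48 h. The treated arrays all lay above control, and at 48 h replicate 3 lay well above the other 2. KRT19 rose 1.32-fold at 24 h (0.41, SE 0.08, adjusted p = 0.00264). At 8 h it was called higher by 0.26 (SE 0.08, adjusted p = 0.0248), and dropping any 1 of the 6 control and 8 h arrays ended that call (adjusted p of up to 0.0749). At 48 h it differed by 0.20 (SE 0.08, adjusted p = 0.0873), and by 0.11 without 48 h replicate 3 (adjusted p = 0.315).

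**Figure D3:**
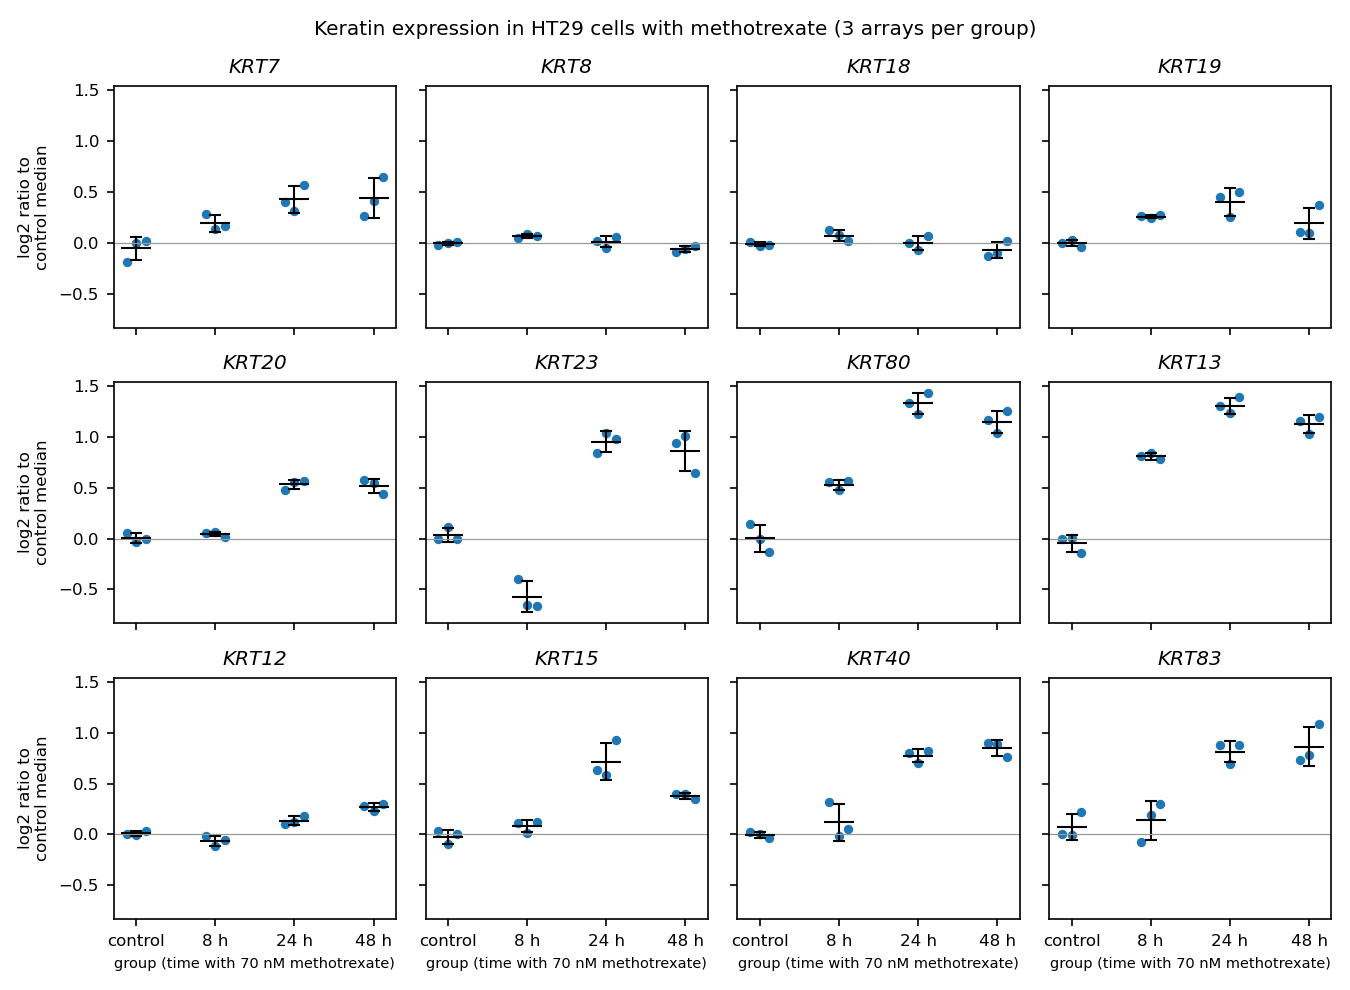
Log2 ratio to the control median (vertical axis) on each array (blue points) of the 4 groups (horizontal axis), with the group mean and SD in black (n = 3 per group), for 12 keratins. KRT8 and KRT18 stay near 0 in every group, KRT13 and KRT80 are above control at each treated time, and KRT23 lies below control at 8 h and above it at 24 and 48 h.

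Among keratins of stratified epithelia, KRT13 rose at all 3 times. It is the type I keratin of the upper layers of mouth and oesophagus, where it pairs with KRT4. KRT13 read 0.00, 0.0020 and -0.14 in control, 0.81, 0.84 and 0.78 at 8 h, 1.30, 1.23 and 1.39 at 24 h and 1.16, 1.03 and 1.19 at 48 h. Each treated group lay clear above control, and the 24 h group lay above the other treated groups. KRT13 rose 1.81-fold at 8 h (0.86, SE 0.06, adjusted p = 6.10e-07), 2.56-fold at 24 h (1.35, SE 0.06, adjusted p = 2.51e-08) and 2.26-fold at 48 h (1.18, SE 0.06, adjusted p = 2.89e-08). Its partner KRT4 differed from control by -0.01 (interval -0.14 to 0.12), -0.03 (interval -0.16 to 0.10) and -0.13 (interval -0.26 to 0.0034) at the same times. Without 48 h replicate 3, KRT4 was called lower at 48 h (-0.18, adjusted p = 0.0477).

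KRT15, a type I keratin of basal cells and of the hair follicle bulge, rose at 24 and 48 h. It read 0.03, -0.10 and 0.00 in control, 0.11, 0.01 and 0.12 at 8 h, 0.64, 0.59 and 0.92 at 24 h and 0.40, 0.40 and 0.34 at 48 h. The 24 h arrays were the highest, and the 48 h arrays lay below all of them. The rise was 1.67-fold at 24 h (0.74, SE 0.08, adjusted p = 2.32e-05) and 1.32-fold at 48 h (0.40, SE 0.08, adjusted p = 0.00172). The other basal keratins, the pair KRT5 and KRT14, were not called. KRT14 varied widely within groups, from -0.03 to 0.28 in control and from 0.22 to 0.60 at 24 h, where it differed by 0.31 (SE 0.15, adjusted p = 0.196).

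KRT12, the type I keratin of the corneal epithelium, was called higher at 48 h by 0.26 (SE 0.05, adjusted p = 0.000953). It read 0.00, -0.0046 and 0.04 in control, -0.02, -0.12 and -0.06 at 8 h, 0.10, 0.12 and 0.18 at 24 h and 0.28, 0.23 and 0.30 at 48 h. The 8 h arrays lay just below control and the 48 h arrays above every other array. Its corneal partner KRT3 differed by -0.04 at 48 h (interval -0.15 to 0.08). Of the 13 keratins of upper layers of stratified epithelia, KRT13 was called at 8 and 24 h, and KRT12 and KRT13 at 48 h. The pair of upper epidermis, KRT1 and KRT10, was not among them. KRT16, a type I keratin induced in wounded skin, differed by 0.14 at 24 h (SE 0.10, adjusted p = 0.440). It shares much of its sequence with KRT14 and with pseudogenes, so its value is uncertain.

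Of 14 keratins of the hair shaft, KRT40 and KRT83 rose at 24 and 48 h. KRT40, a type I hair keratin, read 0.02, 0.00 and -0.03 in control, 0.32, -0.02 and 0.05 at 8 h, 0.80, 0.70 and 0.82 at 24 h and 0.90, 0.89 and 0.76 at 48 h. At 8 h replicate 1 lay apart above the other 2, and all later arrays were clear above control. The rise was 1.71-fold at 24 h (0.78, SE 0.08, adjusted p = 1.56e-05) and 1.81-fold at 48 h (0.86, SE 0.08, adjusted p = 3.83e-06). KRT40 had 2 probe sets, which gave differences of 0.77 and 0.78 at 24 h. They read almost the same on every array (0.317 and 0.323 on 8 h replicate 1), so their agreement is not independent support.

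KRT83, a type II hair keratin, read 0.00, -0.0091 and 0.22 in control, -0.07, 0.19 and 0.30 at 8 h, 0.88, 0.69 and 0.88 at 24 h and 0.73, 0.78 and 1.08 at 48 h. Control and 8 h overlapped, and the later arrays lay above both. It rose 1.68-fold at 24 h (0.74, SE 0.11, adjusted p = 0.000421) and 1.73-fold at 48 h (0.79, SE 0.11, adjusted p = 0.000151). KRT83 is nearly identical to KRT81 and KRT86, which have no probe set of their own here, so its signal cannot be assigned to KRT83 alone. KRT31, a type I keratin of the hair cortex, was called higher at 24 h by 0.22 (SE 0.07, adjusted p = 0.0468), and that call was lost in 10 of 18 other fits (up to 0.211), among them without any 1 of the 8 h arrays, control replicate 1 or 2, 24 h replicate 1 or 3, or 48 h replicate 2. The replicate block (adjusted p = 0.0545) and a fit of only those groups (0.0542) also ended it. None of the 9 keratins of the inner root sheath and companion layer of the hair follicle was called by limma in any of the 6 comparisons. Their differences from control ran from -0.05 to 0.15.

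In all, 35 keratins were called in none of the 6 comparisons. The share of all genes called in none of the 6 was not worked out, so this count has no background beside it. Their differences from control ranged from -0.13 (KRT4 at 48 h) to 0.31 (KRT14 at 24 h). Their 95% confidence intervals extended by a median of 0.14 to either side, so differences within such an interval are not excluded for them. A keratin that is not expressed would also read near 0 in every group, and the files do not tell such genes apart from expressed genes that kept their level.

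By type, 7 of 27 type I keratins and 3 of 20 type II keratins were called at 24 h against control, all higher, and 6 and 3 at 48 h. Among all genes, 8.69% were called higher at 24 h and 13% at 48 h (16.7% and 25.3% in either direction). The types and classes were not tested against each other. The median difference at 24 h was 0.11 for type I and 0.05 for type II. By class, 5 of 7 keratins placed with simple epithelia were called at 24 h and 4 at 48 h, with a median of 0.48 and 0.49. KRT80, which is found in many epithelia, was counted in that class. The 3 basal keratins had a median of 0.31 and 0.19, the 13 of upper layers 0.04 and 0.00, the 9 of the root sheath 0.06 and 0.02 and the 14 of the hair shaft 0.11 and 0.06.

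The treated groups were also compared with each other, and here each pair of comparisons shares 1 treated group. From 8 to 24 h, 8 keratins rose and 0 fell (17%, against 19.4% of all genes, of which 9.99% up and 9.4% down), and 0 were lower at an unadjusted p under 0.05 by limma. They were KRT12, KRT13, KRT15, KRT20, KRT23, KRT40, KRT80 and KRT83. After KRT23 the largest rises were those of KRT80, 1.74-fold (0.80, SE 0.08), and KRT83, 1.60-fold (0.68, SE 0.11). From 24 to 48 h, KRT15 was lower by 0.34 (SE 0.08, adjusted p = 0.0147) and was the 1 keratin called (2.13%, against 10.1% of all genes, with 5.26% up and 4.86% down). That call was lost in a fit of only those groups (adjusted p = 0.0742), and KRT19 was called lower too without 24 h replicate 2 (adjusted p = 0.0359) or 48 h replicate 3 (0.0107). The median keratin differed by -0.04 between 24 and 48 h. With array weights, 1 keratin was higher (2.13%, against 15.1% of all genes) and 13 were lower (27.7%, against 17%) at 48 h than at 24 h.

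From 8 to 48 h, 8 keratins rose and KRT8 was called lower (19.1%, against 29.7% of all genes, with 15.3% up and 14.4% down). The rises were 2.70-fold for KRT23 (1.44, SE 0.10), 1.66-fold for KRT40 (0.73, SE 0.08), 1.65-fold for KRT83 (0.72, SE 0.11) and 1.54-fold for KRT80 (0.62, SE 0.08). KRT20, KRT12, KRT13 and KRT15 rose by 0.47, 0.33, 0.32 and 0.30. Without 48 h replicate 3, 8 were higher (17%, against 16.2% of all genes) and 4 lower (8.51%, against 15.1%), namely KRT4, KRT8, KRT18 and KRT33A. With array weights, 9 were higher (19.1%, against 22.9%) and 8 lower (17%, against 23.7%). The arrays of both groups did not overlap for 11 keratins between 8 and 24 h (23.4%, against 33.3% of all genes), 9 between 24 and 48 h (19.1%, against 24%) and 10 between 8 and 48 h (21.3%, against 37.8%).

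The called keratins lay next to one another in the genome more than once. Type I keratins form a cluster on chromosome 17 and type II keratins a cluster on chromosome 12, where KRT18 also lies. By the gene order of RefSeq (GRCh38.p14), 8 of the 11 keratins called higher than control stood in 3 runs of adjacent protein-coding genes. These were KRT80 with KRT7, KRT12 with KRT20 and KRT23, and KRT13 with KRT15 and KRT19. The runs pool the times, since KRT12 was not called at 24 h (adjusted p = 0.0854) and KRT19 not at 48 h (adjusted p = 0.0873). The genes on either side did not all share the change, since KRT39, between KRT23 and KRT40, differed by -0.01 at 24 h. KRT10, next to KRT12, differed by -0.05. The runs were looked for after the values were known and were not tested.

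**Figure D4:**
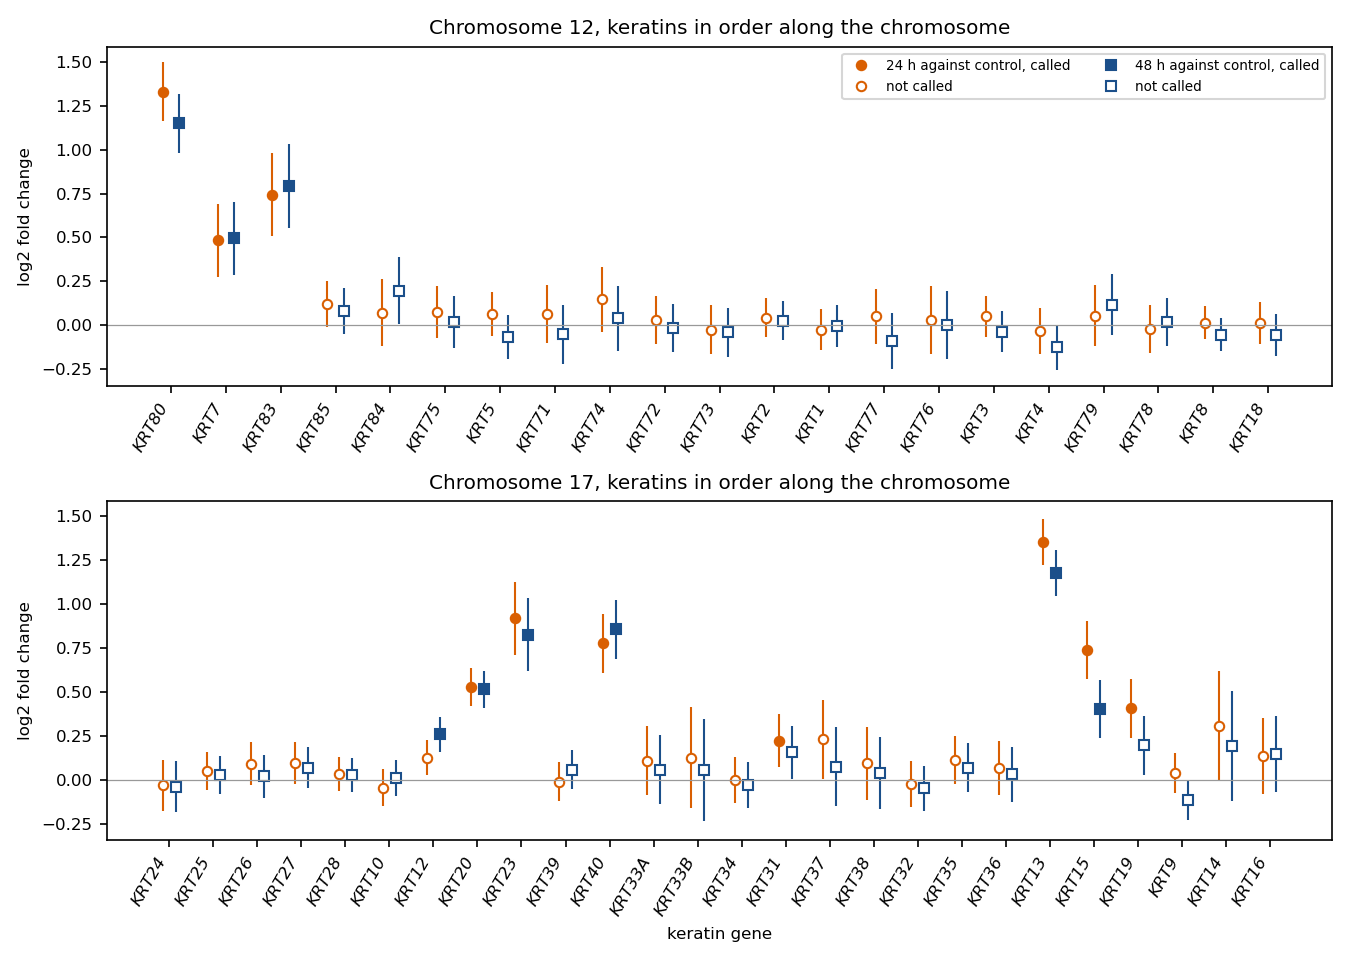
Log2 fold change against control (vertical axis, with 95% confidence interval) at 24 h (orange circles) and 48 h (blue squares) for the keratins of chromosomes 12 and 17 in their order along the chromosome. Filled symbols mark called genes, which include KRT80 and KRT7 side by side, KRT12, KRT20 and KRT23 in a row at 48 h, and KRT13, KRT15 and KRT19 in a row at 24 h.

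The promoters of 2 adjacent genes that were both called higher at 48 h are shown with that of KRT8, which was not called against control. The table of RefSeq promoters (GRCh38.p14) held 33 of the 47 keratins, 4 of them among the 11 called higher (KRT12, KRT20, KRT31 and KRT40). Each sequence is the 250 bases before a listed transcription start, 5′ to 3′ on the gene's strand, which is the minus strand for all 3. Whether HT29 cells use that start is not known from these data. Capitals mark a match to any of 4 motifs searched on both strands. These were TATAAA for the TATA box, CCAAT for the CCAAT box, GGGCGG for the GC box and TGANTCA for the AP-1 site. KRT20 lies at chr17:40885243-40885492, KRT12 at chr17:40867224-40867473 and KRT8 at chr12:52926470-52926719.
KRT20: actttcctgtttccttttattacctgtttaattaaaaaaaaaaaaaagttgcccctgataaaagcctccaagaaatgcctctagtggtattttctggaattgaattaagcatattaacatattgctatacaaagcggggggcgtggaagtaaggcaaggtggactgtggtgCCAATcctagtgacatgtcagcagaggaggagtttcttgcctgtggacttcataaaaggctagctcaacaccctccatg
KRT12: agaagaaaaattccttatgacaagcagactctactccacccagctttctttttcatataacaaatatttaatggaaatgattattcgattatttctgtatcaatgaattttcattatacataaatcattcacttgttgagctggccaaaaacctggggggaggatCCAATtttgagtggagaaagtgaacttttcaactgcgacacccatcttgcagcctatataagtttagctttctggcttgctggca
KRT8: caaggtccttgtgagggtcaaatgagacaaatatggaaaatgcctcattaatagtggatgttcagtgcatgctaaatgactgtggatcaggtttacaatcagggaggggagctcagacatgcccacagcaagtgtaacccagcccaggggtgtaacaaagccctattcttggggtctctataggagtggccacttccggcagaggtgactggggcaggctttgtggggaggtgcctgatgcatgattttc

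KRT20 and KRT12 each held 1 CCAAT in the orientation of the gene, which began 79 and 85 bases before the start. The only KRT8 window listed held no match to any of the 4. Bases outside that window, or before any other start of KRT8, were not searched. Over all 37 promoter windows of the 33 keratins, 54.1% held TATAAA, against 10.7% of all 35116 windows of the table, and 43.2% held CCAAT, against 32%. GGGCGG was in 10.8% of keratin windows, against 42.6%. TGANTCA was in 0 of 37, against 6.57%. Of the 7 windows of keratins called higher, 4 belong to KRT40, and 3 of those held no match. Counted once per gene, TATAAA was in 2 of the 4 keratins called higher (KRT31 and KRT40) and 18 of 29 others, and CCAAT in 2 of 4 (KRT12 and KRT20) and 13 of 29. A match describes the letters only. Near matches to TATAAA, such as tatataag in KRT12 and cataaaag in KRT20, were not counted, so a gene without a match may still hold a variant.

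Genes that work with keratins were taken from 4 lists. Of 19 measured proteins that bind, anchor or modify keratin filaments, 6 rose and 1 fell at 8 h, 6 rose and 0 fell at 24 h, and 7 rose and 0 fell at 48 h. The shares that rose were 31.6%, 31.6% and 36.8%, against 12.1%, 8.69% and 13% of all genes. The share that fell at 8 h was 5.26%, against 12%. At an unadjusted p under 0.05, limma had 1 lower at 24 h and 0 at 48 h. The list median was 0.13, 0.15 and 0.14, against 0.02, 0.02 and 0.01 for all genes. SFN (14-3-3 sigma), which binds KRT17, rose 1.68-fold at 8 h (0.75, SE 0.06), 1.73-fold at 24 h (0.79, SE 0.06) and 1.72-fold at 48 h (0.78, SE 0.06). YWHAH (14-3-3 eta), of the same family, rose by 0.36, 0.37 and 0.32 (SE 0.05) at the 3 times. PKP3, a desmosomal plaque protein, rose by 0.47 at 8 h (SE 0.10). The gene that fell at 8 h was TGM2, a transglutaminase (-0.24, SE 0.05), and it was called higher at 48 h (0.29). TRADD, a death receptor adaptor that binds KRT18, rose by 0.46 at 24 h (SE 0.08) and 0.46 at 48 h. The plakin gene DST, whose epithelial form anchors keratins to hemidesmosomes, rose by 0.46 at 24 h (SE 0.11) and 0.59 at 48 h.

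Of 18 intermediate filament genes outside the keratins, 4 rose at 8 h and 0 were called at 24 or 48 h, where limma had 1 each at an unadjusted p under 0.05. The called shares were 22.2%, 0% and 0%, against 24.2%, 16.7% and 25.3% of all genes. Those at 8 h were LMNB1 (0.44, SE 0.05), IFFO2 (0.36, SE 0.09), LMNA (0.30, SE 0.07) and LMNB2 (0.24, SE 0.05), of which the lamins form the filaments under the nuclear envelope. Without 48 h replicate 3, LMNA was called lower at 48 h (-0.20, adjusted p = 0.0348). VIM, the mesenchymal filament vimentin, differed by 0.09, 0.15 and -0.07 from control at the 3 times and was not called. The list median was 0.10 at 8 h, 0.06 at 24 h and 0.04 at 48 h.

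Of 21 measured genes of the cornified envelope, the protein shell of squamous cells, 3 rose and 0 fell at 8 h, 5 rose and 0 fell at 24 h, and 6 rose and 1 fell at 48 h. The shares that rose were 14.3%, 23.8% and 28.6%, against 12.1%, 8.69% and 13% of all genes. The share that fell at 48 h was 4.76%, against 12.3%. At an unadjusted p under 0.05, limma had 1 lower at 8 h and 0 at 24 h. SCEL, which encodes the envelope precursor sciellin, rose 2.32-fold at 24 h (1.21, SE 0.10) and 1.95-fold at 48 h (0.96, SE 0.10). SPRR1B rose by 0.50, 0.59 and 0.42 (SE 0.06) and SPRR1A by 0.39, 0.52 and 0.62 (SE 0.07). SPRR3 was called at each time (0.26, 0.24 and 0.37, SE 0.07), and its call at 8 h failed on leaving out control replicate 1 or 2 or 8 h replicate 2 (adjusted p of up to 0.0788). The call at 24 h failed with each array centred and on leaving out control replicate 1 or 2, 8 h replicate 3 or 24 h replicate 1 or 2 (up to 0.178). CDSN, a corneodesmosome protein, rose by 0.38 at 24 h (SE 0.08) and 0.41 at 48 h. The gene called lower at 48 h was CSTA, the protease inhibitor cystatin A (-0.15, SE 0.05, adjusted p = 0.0376). The list median was 0.01, 0.02 and 0.03, near that of all genes.

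Of 21 measured transcription factors known to act on keratin genes or epithelial identity, 2 rose and 7 fell at 8 h, 5 rose and 3 fell at 24 h, and 6 rose and 6 fell at 48 h. The shares that rose were 9.52%, 23.8% and 28.6%, against 12.1%, 8.69% and 13% of all genes. The shares that fell were 33.3%, 14.3% and 28.6%, against 12%, 8.02% and 12.3%. GRHL3, a grainyhead factor of surface epithelia, rose by 0.53 at 24 h (SE 0.07) and 0.62 at 48 h. JUNB fell by 0.57 at 8 h, 0.38 at 24 h and 0.51 at 48 h (SE 0.07). ETS2 fell by 0.19 at 8 h, 0.38 at 24 h and 0.58 at 48 h (SE 0.04). OVOL1 fell by 0.41 at 8 h, 0.35 at 24 h and 0.46 at 48 h (SE 0.07). FOSL1, an AP-1 subunit, rose by 0.40 at 8 h (SE 0.06) and 0.31 at 24 h, and its call at 48 h (0.21) failed on leaving out control replicate 2 or 48 h replicate 3 and in a fit of only those groups (adjusted p of up to 0.0941). The other gene that rose at 8 h was PITX1 (0.23, SE 0.08), a homeobox factor, which also rose by 0.32 at 24 h and 0.36 at 48 h. At 24 h GRHL1 rose too (0.34, SE 0.06). ELF3, an epithelial ETS factor, fell at 8 h (-0.21, SE 0.05, adjusted p = 0.00836) and rose at 24 h (0.17) and 48 h (0.22). The list median was -0.07, 0.01 and 0.05.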

How the data were processed

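The deposited values are log2 values of the authors, 1 per probe set and array, for 12 arrays in 4 groups of 3. Per the submitters' processing notes they come from RMA, on build hg19, and no version was named. Since the 3 control arrays had a median of 0 at each of the 28869 probe sets, the values were read as log2 ratios to control. No source used here names that centring, and the log base was taken from RMA. Centring leaves differences between groups as they were and removes levels, so no filter on dim probe sets could be run. The number of arrays limits the precision.

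Gene names came from the platform annotation, in which 19310 probe sets named 1 gene, 1752 several and 7807 none. Where a gene had more than 1 single-gene probe set they were averaged (18377 genes). Among keratins this concerned KRT18, KRT39 and KRT40. All 12 arrays were fitted in limma 3.58.1 (R 4.3.3) with a mean per group (8 residual degrees of freedom, and 4.71 prior ones from limma), and 6 comparisons were tested two-sided. The error of a fold change is limma's moderated SE, pooled over groups. The median SD of a keratin between replicates ran from 0.070 in the 24 h group to 0.086 in the 48 h group. The script was tested on simulated data.

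The members and lists were chosen with earlier results of these data known. Values on every array are given for KRT7, KRT8, KRT18, KRT19 and KRT20 and, per comparison with control, for up to 6 called rises and 6 called falls of largest size without overlap. KRT12 and KRT31 and the values named for KRT4, KRT5, KRT9, KRT14 and KRT33A were added after their values were seen. From each list up to 3 called genes per comparison with control are named. LMNB2, VIM, TGM2, CDSN, CSTA, PITX1, GRHL1 and ELF3 were added after their values were seen. Replicate numbers were not treated as pairs. Figures were drawn with Python 3.11.15 and matplotlib 3.10.9.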

Additional observations from a re-analysis of the deposited data

Results flagged for a closer look

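The change against control differed between treated times, by limma's test of those times against each other, for 9 keratins. From 8 to 24 h the differences were 1.53 for KRT23, 0.80 for KRT80, 0.68 for KRT83, 0.65 for KRT40, 0.64 for KRT15, 0.50 for KRT13, 0.49 for KRT20 and 0.20 for KRT12. From 8 to 48 h they were 1.44 for KRT23, 0.73 for KRT40, 0.72 for KRT83, 0.62 for KRT80, 0.47 for KRT20, 0.33 for KRT12, 0.32 for KRT13, 0.30 for KRT15 and -0.13 for KRT8. From 24 to 48 h it was -0.34 for KRT15. The KRT8 call was lost in 12 of 18 other limma fits (adjusted p of up to 0.141). The KRT15 call from 24 to 48 h was lost in a fit of only those groups (0.0742).

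Among probe sets that name a keratin pseudogene, a keratin antisense gene, KRT222 or several genes, which no comparison above used, 2 differed from control (adjusted over all 28869 probe sets). KRT10-AS1, an antisense gene beside KRT10, was lower at 8 h by limma (-0.25, SE 0.07, adjusted p = 0.0258) and at 24 h (-0.41, SE 0.07, adjusted p = 0.00200), while KRT10 differed by -0.04 and -0.05. The probe set that names both MIR492 and KRT19P2 was higher at 24 h (0.54, SE 0.12, adjusted p = 0.00932). It read -0.19, 0.11 and 0.00 in control and 0.52, 0.26 and 0.77 at 24 h. KRT19 read 0.45, 0.25 and 0.50 on the same 24 h arrays, and whether this probe set picks up KRT19 RNA was not tested.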

How the results depend on the processing

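Against control, leaving out each array in turn gave 3 to 5 called keratins at 8 h, 9 to 10 at 24 h and 9 to 10 at 48 h. It gave 8 to 9 from 8 to 24 h, 1 to 2 from 24 to 48 h, 8 to 12 from 8 to 48 h and 10 to 11 by the F test. With array weights the counts were 13 at 8 h, 16 at 24 h, 14 at 48 h, 14 from 24 to 48 h, 17 from 8 to 48 h and 23 by the F test, and the cause was not tested. Calls among all genes with array weights, in either direction, were 35.8%, 33.1% and 40.6% against control and 60.9% by the F test. From 24 to 48 h, 15.1% of all genes were higher and 17% lower, and from 8 to 48 h 22.9% and 23.7%. The array weights ran from 0.199 for 48 h replicate 3 to 6.52 for 48 h replicate 2. Requiring a change of at least 1.5-fold left 2, 6 and 5 against control, 5 from 8 to 24 h, 0 from 24 to 48 h and 4 from 8 to 48 h. The same rule left 3.25%, 2.41% and 3.74% of all genes against control, and was not worked out for all genes between treated times. At an adjusted p under 0.01, and in a fit of only those groups, 0 were called from 24 to 48 h. Same-numbered arrays of different groups deviated together in 11 of 18 pairs (correlations of -0.45 to 0.47, median 0.15, over 0.1 counted). Arrays with other numbers did so in 14 of 36 pairs (-0.67 to 0.60, median -0.16). Of the 12 arrays, 6 correlated best with their own number. With the replicate block, 6, 9 and 10 keratins were called at 8, 24 and 48 h against control and 8, 1 and 9 in the later comparisons (11 by the F test), the last of them 9 higher and 0 lower, without KRT8. Centring each array gave 4, 10 and 9 against control. Shares of all genes were not worked out for the replicate block, for centring or for leaving out arrays other than 48 h replicate 3. Those counts therefore have no background beside them. For single genes, 2238 of 2310 refits stayed on the same side of the threshold, 41 lost a call and 31 gained one. Where the refit or the main fit made a call, 0 changed direction. Changes of sign among differences called in neither fit were not counted. The filter on dim probe sets was not run, since the values hold no level.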

Other observations

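Keratin-associated proteins cross-link hair keratins, and 66 of their genes were measured. Of these, 0 were called by limma at 8 h against control (2 at an unadjusted p under 0.05), 1 was higher at 24 h and 2 were higher at 48 h. The called shares were 0%, 1.52% and 3.03%, against 24.2%, 16.7% and 25.3% of all genes. KRTAP3-1 was higher by 0.23 at 24 h (SE 0.07, adjusted p = 0.0459) and by 0.89 at 48 h (SE 0.07, adjusted p = 1.63e-06), and by 0.66 at 48 h against 24 h. KRTAP4-1 was higher by 0.37 at 48 h (SE 0.09, adjusted p = 0.00788). The 66 genes had a median difference of 0.02 at 8 h, 0.01 at 24 h and 0.02 at 48 h. This group was looked at after the keratin values were known.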
